A study of Mus musculus with 12 samples.

Results

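The transcriptional intermediary factor 1 (TIF1) co-regulators Trim24, Trim28 and Trim33 were described in mouse liver together with the retinoic acid receptors Rara and Rarb and the retinoic acid hydroxylase Cyp26a1. These 6 genes were taken by symbol out of the 24187 genes of the count table, and all 6 were among the 22581 genes that passed the filter on low counts. Trim24 was chosen by its measured difference between hAAM-treated and vehicle-treated injured livers in these same samples, so that difference is given below as a description with no test. Trim28 and Trim33 were added as its relatives in the family, and Rara, Rarb and Cyp26a1 for the retinoic acid pathway in which Trim24 acts.

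TIF1 proteins carry a tripartite RING, B-box and coiled-coil region, followed by a PHD finger and a bromodomain with which they read chromatin. Trim24 (TIF1α) binds nuclear receptors that hold their ligand, the retinoic acid receptor Rara among them, and restrains their target genes, and it is also a ubiquitin ligase for p53. Trim28 (TIF1β, KAP1) is recruited by KRAB zinc finger repressors, while Trim33 (TIF1γ) binds Smad proteins of the TGF-β pathway. In mice, loss of Trim24 leads to liver tumours that depend on Rara, and the liver stores most of the body's vitamin A, the precursor of retinoic acid. Retinoic acid induces its own receptor gene Rarb and the gene of its own degrading enzyme, Cyp26a1.

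Livers of 12 C57BL/6J mice were measured by bulk RNA sequencing of ribosome-depleted total RNA, as raw read counts per gene. Controls were 3 untreated mice; the 9 others received acetaminophen (APAP, 350 mg/kg by the labels), which causes acute liver injury (ALI) through a toxic metabolite made in hepatocytes, and then either vehicle (n = 5) or human alternatively activated macrophages (hAAM, n = 4). These hAAMs were differentiated from human CD14+ blood monocytes with CSF1, polarized with IL-4 and IL-13, stored frozen and injected intravenously. Mice were 10 to 12 weeks old and received cells 16 h after APAP, and the cull is stated both as 36 h and as 32 h after APAP. The study shows these livers with its severe model, for which it gives a higher dose than the labels do, and its methods name the mouse substrain in more than one way. No group received cells without injury. The labels do not give the sex of the animals, and Ddx3y, a Y-linked gene, had 3064 to 4281 counts against 10 to 149 counts for Xist in all 12 livers.

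Total counts ranged from 47391650 to 74056505 per liver. One vehicle liver (replicate 3) and one hAAM liver (replicate 4) had nearly the same counts: over genes with a mean of at least 100 counts, their spread was 1.20 times the counting noise, whereas every other pair of APAP livers lay at 2.55 times or more. Whether both came from one animal or one carries the label of the other group was not tested, so that n = 5, n = 4 and the 9 pooled livers may overstate the independent livers or hold one in the wrong group. Pooled values and differences between treatments of the 6 genes, and the counts of the lists, are given below with and without this pair. Hepatocyte markers (6 of 6 detected in every liver) summed to between 65418 and 105608 CPM (read counts over the size of the library, which was scaled by the trimmed mean of M-values, TMM). Genes of recruited monocytes and macrophages summed to 28.1 to 42.2 CPM in controls, 75.4 to 337 CPM in vehicle livers and 75.0 to 287 CPM in hAAM livers, and none of the 7 was at 0 in any liver. In bulk tissue, fewer cells of a type and less RNA per cell cannot be told apart, and the part of such cells in the results below was not tested.

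Among these genes, Rarb and Cyp26a1 are the textbook targets of retinoic acid receptors, which bind direct repeats of a hexamer. Promoter entries from RefSeq on GRCm38.p6, which begin 250 bases before the start, were searched on both strands. The search was for 2 hexamers in the same direction with 5 bases between them. The hexamer AGGTCA was accepted, as were its variants with the spelling AGTTCA, with the spelling GGGTCA and with the spelling GGTTCA. Of 32851 promoter entries of all genes, 32 (0.0974%) held this repeat, and those of Rarb and Cyp26a1 were among them. Their windows of 250 bases before the start are shown here, 5′ to 3′ on the strand of the gene, with the repeat in capitals. These 2 were chosen as the receptor targets among the 6 genes. In Rarb the repeat was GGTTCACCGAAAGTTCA, 53 to 37 bases before the start, in the window chr14:16575477-16575726 (minus strand). In Cyp26a1 it read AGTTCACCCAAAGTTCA on the strand opposite to the gene, 32 to 16 bases before the start, in the window chr19:37697558-37697807 (plus strand).
Rarb: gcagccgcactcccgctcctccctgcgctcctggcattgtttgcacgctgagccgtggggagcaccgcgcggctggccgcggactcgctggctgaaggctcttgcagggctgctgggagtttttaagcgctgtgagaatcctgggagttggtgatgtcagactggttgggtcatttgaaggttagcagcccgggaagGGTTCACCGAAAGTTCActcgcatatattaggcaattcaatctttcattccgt
Cyp26a1: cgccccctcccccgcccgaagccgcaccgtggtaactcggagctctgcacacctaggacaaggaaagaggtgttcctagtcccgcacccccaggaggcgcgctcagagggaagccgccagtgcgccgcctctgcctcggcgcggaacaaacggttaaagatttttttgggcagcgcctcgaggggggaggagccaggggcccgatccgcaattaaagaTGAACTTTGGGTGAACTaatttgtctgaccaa

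The 2 promoter entries of Trim24, the 1 of Trim28 and the 4 of Rara did not hold these letters, nor did those of 18 other genes of the pathway lists described below. Repeats with 1 or 2 bases between the hexamers were also searched. They were in 73 and 88 entries of all genes, and among the genes looked at here only in Bco1 (1 base). A match is a description of the letters and not a measured binding site. The first Trim24 window had 69.6% GC and 27 CpG, the second had 46% GC and 1 CpG, and the median over all windows was 52.4% GC and 6 CpG.

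Trim24 (ENSMUSG00000029833, GRCm38 chr6:37870811-37966296, plus strand, 8521 bases of exon) was measured with 1174 to 2750 counts per liver. Its level was 26.3, 24.98 and 31.9 CPM in the 3 controls. In the 5 vehicle livers it was 36.3, 41.4, 29.0, 35.8 and 40.7 CPM, and in the 4 hAAM livers 24.2, 23.0, 22.7 and 27.3 CPM (replicates in order). Every hAAM liver lay below every vehicle liver, 4 of 5 vehicle livers lay above all controls, and 3 of 4 hAAM livers lay below all controls. The means were 27.7 ± 3.66 CPM in controls (SD, n = 3), 36.6 ± 4.97 CPM with vehicle (SD, n = 5) and 24.3 ± 2.07 CPM with hAAM (SD, n = 4).

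**Figure D1:**
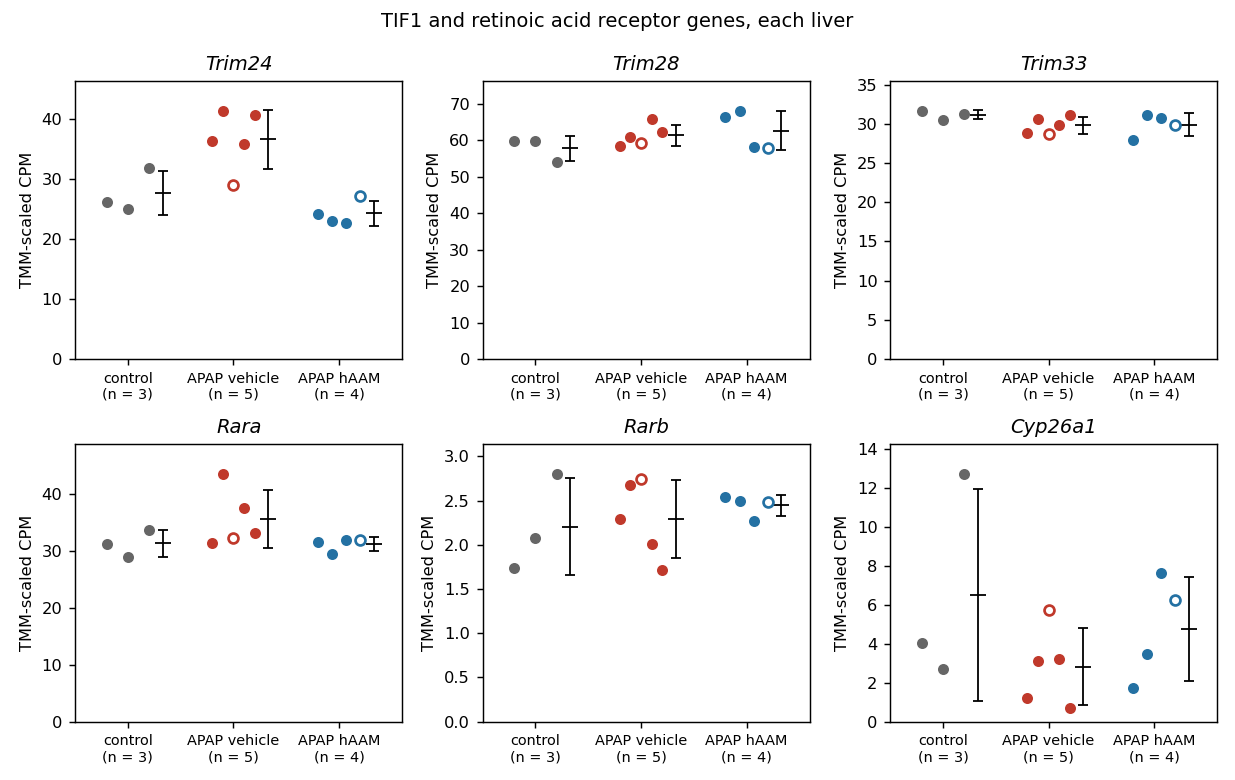
TMM-scaled CPM of the 6 genes (y axis, starting at 0) in each liver by group (x axis), with the mean ± SD as a black bar beside the points and the near-identical vehicle replicate 3 and hAAM replicate 4 as open circles. For Trim24 the hAAM livers (22.7 to 27.3 CPM) lie below the vehicle livers (29.0 to 41.4 CPM), whereas the groups overlap for the other 5 genes.

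As log2 fold changes from edgeR, Trim24 was 0.40 (SE 0.121, 95% confidence interval 0.14 to 0.67) in vehicle livers against control, which is 1.32-fold. It was -0.19 (SE 0.125, -0.46 to 0.08) in hAAM livers against control and -0.59 (SE 0.111, -0.83 to -0.35) in hAAM against vehicle livers. These 3 values share livers and include the contrast that picked the gene, so they carry no test, and their intervals cannot be read as one. The difference between hAAM and vehicle may be overstated, since the gene was picked for it. Complete separation of hAAM livers below vehicle livers was found for 156 of the 22581 genes (0.691%), and for 316 genes (1.40%) in either direction. Leaving out the near-identical pair of livers gave 0.48, -0.25 and -0.73 in the same order, and leaving out 1 liver at a time they ranged from 0.33 to 0.52, from -0.26 to -0.07 and from -0.67 to -0.54. The value nearest 0 for hAAM against control, -0.07, was the one without control replicate 3, and with library-size scaling that difference was 0.12, below the median of all genes there (0.32).

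For Trim24, all 9 APAP livers together were set against control, weighted by group size. With these weights the estimate does not depend on the difference between treatments that picked the gene. It averages vehicle livers, whose mean lay above control, and hAAM livers, whose mean lay below. A small pooled value therefore cannot tell whether injury without cells moved Trim24. The pooled difference from control was 0.14 on the log2 scale (SE 0.110, 95% confidence interval -0.10 to 0.38, edgeR FDR = 0.357) and did not pass the threshold of 0.05, which 31.5% of all genes passed. It was 0.17 without the near-identical pair (edgeR FDR = 0.160), and leaving out 1 liver at a time gave 0.07 to 0.25, with edgeR FDR from 0.161 to 0.727. Scaled by library size instead of TMM, all comparisons with controls moved up: the median of all genes became 0.34 and Trim24 0.47 (edgeR FDR = 0.0105).

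Trim28 (ENSMUSG00000005566, chr7:12999114-13031035, plus strand) held a narrow range. It was 53.9 to 59.9 CPM in controls, 58.3 to 65.8 CPM with vehicle and 58.0 to 68.1 CPM with hAAM, so the groups overlapped. The pooled difference was 0.10 (SE 0.0709, edgeR FDR = 0.312), and hAAM against vehicle it was 0.03 (95% confidence interval -0.12 to 0.18). Its coefficient of variation over the 12 livers was 6.76%, against 22.3% for Trim24 and a median of 22.9% over all genes tested.

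Trim33 (ENSMUSG00000033014, chr3:103279293-103358775, plus strand) varied least of the 6 genes, by 3.87% over the 12 livers. It was 30.5 to 31.7 CPM in controls, 28.7 to 31.2 CPM with vehicle and 27.9 to 31.1 CPM with hAAM. The pooled difference was -0.06 (SE 0.0529, 95% confidence interval -0.18 to 0.06, edgeR FDR = 0.414), a direction that turned to 0.27 with library-size scaling while staying below the median of all genes there. For hAAM against vehicle the difference was 0.00, with an interval from -0.11 to 0.12.

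Ratios of counts within a library do not depend on how libraries are scaled. The Trim24 to Trim33 count ratio was 0.889 ± 0.114 in controls (SD, n = 3), 1.23 ± 0.133 with vehicle (n = 5) and 0.814 ± 0.0880 with hAAM (n = 4). The lowest vehicle liver stood at 1.01 and the highest hAAM liver at 0.912, so that these groups did not overlap. Against Trim28, the Trim24 ratio was 0.483 ± 0.0943, 0.597 ± 0.0790 and 0.391 ± 0.0572 in the same order, with 0.489 as the lowest vehicle liver and 0.470 as the highest hAAM liver. Against Rara the ratio was 0.882 ± 0.0545, 1.04 ± 0.144 and 0.779 ± 0.0584, with the nearest livers at 0.896 and 0.854. In all 3 ratios these nearest livers were the near-identical vehicle replicate 3 and hAAM replicate 4, and the separation rests on Trim24, which was picked for it.

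**Figure D2:**
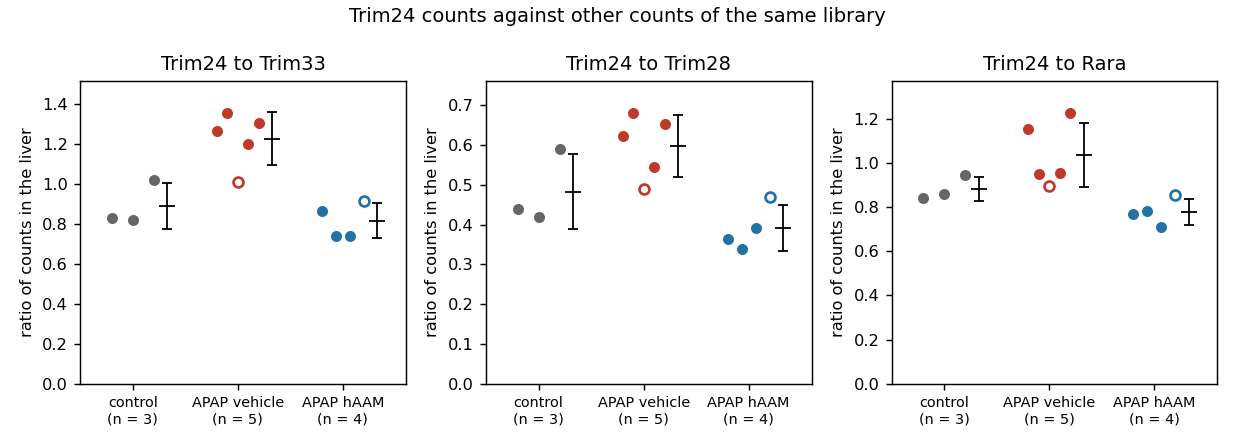
Ratio of Trim24 counts to Trim33, Trim28 and Rara counts of the same library (y axis, no unit, starting at 0) in each liver by group (x axis), with mean ± SD bars and the near-identical livers as open circles. In each panel the hAAM livers lie below the vehicle livers, and the controls reach from 0.818 to 1.02 in the ratio to Trim33.

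Rara (ENSMUSG00000037992, chr11:98927818-98974942, plus strand), the receptor that Trim24 binds, was 31.2, 29.0 and 33.8 CPM in controls. It was 31.5, 43.6, 32.3, 37.6 and 33.2 CPM with vehicle and 31.5, 29.4, 31.9 and 31.9 CPM with hAAM. Vehicle replicates 2 and 4 lay above all other livers, and the remaining livers of the 3 groups overlapped. The pooled difference from control was 0.10 (SE 0.0943, 95% confidence interval -0.10 to 0.31, edgeR FDR = 0.444). Vehicle against control gave 0.19 (SE 0.103, edgeR FDR = 0.193) and hAAM against control -0.01 (SE 0.107, edgeR FDR = 0.975), a value that changed sign under several settings. The difference between hAAM and vehicle, -0.19 with an interval from -0.40 to 0.01, had the sign of the Trim24 difference and was smaller. Leaving out 1 liver at a time, this Rara difference ranged from -0.23 to -0.11. The pooled value then ranged from 0.05 to 0.16 and the vehicle value from 0.10 to 0.24.

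Rarb (ENSMUSG00000017491, chr14:16430839-16819156, minus strand), the inducible receptor, was low in all livers, with 91 to 154 counts. It was 1.73 to 2.81 CPM in controls, 1.72 to 2.75 CPM with vehicle and 2.27 to 2.54 CPM with hAAM, and the groups overlapped. The pooled difference was 0.10 (SE 0.171, 95% confidence interval -0.28 to 0.47, edgeR FDR = 0.704), and without control replicate 1 it was -0.05. Part of its exons lies opposite those of Top2b, a topoisomerase gene with 54.4 to 67.5 CPM and a pooled difference of -0.20 (edgeR FDR = 0.0250). The strand setting of the counting is not given in the sources used here, so reads of both genes may not have been told apart.

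Cyp26a1 (ENSMUSG00000024987, chr19:37697798-37701536, plus strand), which hydroxylates retinoic acid and so removes it, varied most of the 6 genes. It was 4.02, 2.71 and 12.7 CPM in controls. With vehicle it was 1.24, 3.13, 5.75, 3.24 and 0.72 CPM, and with hAAM 1.72, 3.46, 7.63 and 6.25 CPM. The highest liver, control replicate 3, stood 17.6 times above the lowest, vehicle replicate 5, and the groups overlapped throughout. The pooled difference was -0.87 (SE 0.583, 95% confidence interval -2.13 to 0.40, edgeR FDR = 0.279), without control replicate 3 it was 0.08, and without the near-identical pair -1.18 (edgeR FDR = 0.148). For hAAM against vehicle it was 0.76 (SE 0.616, interval -0.57 to 2.10), or 1.03 without the pair, so that a change of either sign was within the error.

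None of the 6 genes passed the threshold in the pooled comparison with control in edgeR, where 31.5% of all genes did, with or without the near-identical pair. Without the pair, Trim28, Trim33, Rara and Rarb gave pooled values of 0.13, -0.05, 0.12 and 0.06, and 0.05, -0.01, -0.24 and 0.16 for hAAM against vehicle. With library-size scaling, where 10132 of all 22581 genes passed and the median of all genes was 0.34, edgeR's pooled comparison called Trim24, Trim28 (FDR = 0.00873), Trim33 (FDR = 0.0154) and Rara (FDR = 0.00524), and with vehicle Trim28 (FDR = 0.0127), Trim33 (FDR = 0.0173) and Rara (FDR = 0.00289) passed too. With hAAM, Trim28 (edgeR FDR = 0.0228) and Trim33 (edgeR FDR = 0.04999) passed under that scaling. Of all 22581 genes, 9747 passed there with vehicle and 7340 with hAAM. With TMM, of the 5 tested separately by treatment, 0 passed with vehicle, where 29.8% of all genes did, and 0 with hAAM, where 20.7% did. Between hAAM and vehicle livers edgeR called 0 of the 22581 genes (0.00%), with 1133 genes at an unadjusted p under 0.05. DESeq2 called 1 gene there, which was Trim24, and this call is a value that picked it.

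**Figure D3:**
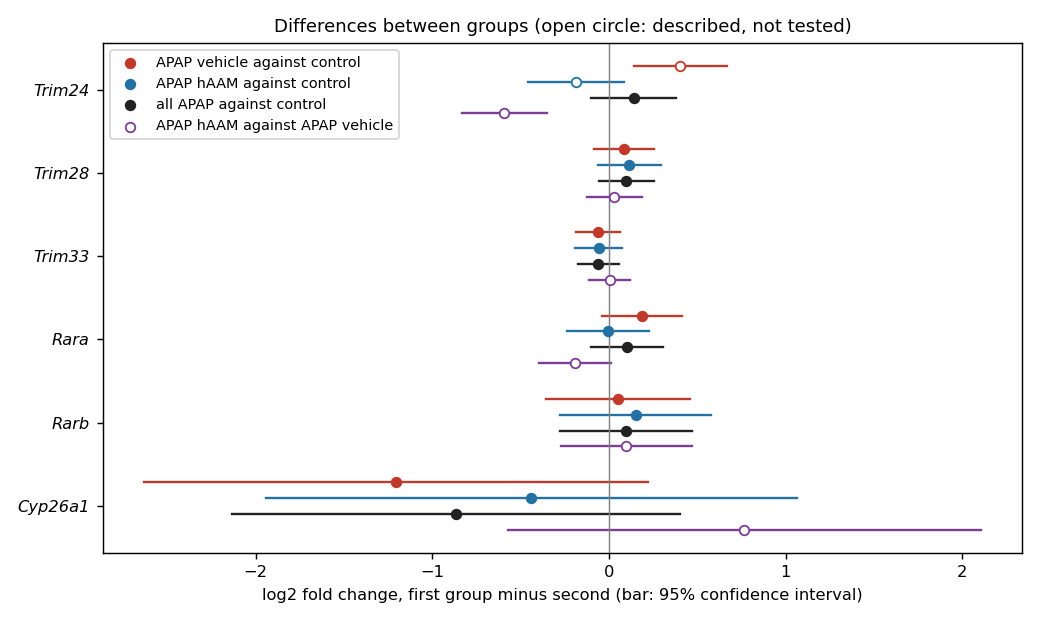
Log2 fold changes (x axis, first group minus second) with 95% confidence intervals (lines) for the 6 genes (y axis) in 4 comparisons (colours), where open circles mark values described without a test. The Trim24 interval for hAAM against vehicle runs from -0.83 to -0.35, but Trim24 was picked by this difference, so the interval is no test. The widest intervals are those of Cyp26a1.

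Levels per kilobase of exon can be compared between genes. The median over the 12 livers was 14.4 CPM per kb for Trim28, 7.31 for Rara, 3.30 for Trim24, 3.12 for Trim33, 1.69 for Cyp26a1 and 0.453 for Rarb. Trim28 lay above Rara, and Rara above Trim24, in 12 of 12 livers. The order of Trim24 and Trim33 differed between groups. This rests on Trim24, which was picked for its difference between treatments, and on the exon lengths used. Trim24 lay above Trim33 in 5 of 5 vehicle livers (3.399 to 4.86 against 2.93 to 3.18 CPM per kb), in 1 of 3 controls and in 1 of 4 hAAM livers, and in those last groups their ranges overlapped. Among relatives of the 6 genes, the receptor partner Rxra stood highest at 71.6 CPM per kb, the receptor Rarg was at 2.09 and Trim66, the TIF1 member of the testis, was at 0.0123 with 3 to 11 counts per liver.

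The other hydroxylases followed Cyp26a1 in 1 liver. Control replicate 3 was the highest of all 12 livers for Cyp26a1 (12.7 CPM), Cyp26b1 (55.8 CPM) and Cyp26c1 (3.81 CPM). Cyp26b1 was 7.99 and 2.75 CPM in the other controls, 8.60 to 11.9 CPM with vehicle and 2.27 to 12.2 CPM with hAAM. Its pooled difference of -1.46 did not pass (SE 0.631, edgeR FDR = 0.0971), and it turned to 0.59 (edgeR FDR = 0.455) without control replicate 3 and passed at -1.99 (edgeR FDR = 0.0231) without control replicate 2. Cyp26c1 fell by 1.42 (SE 0.329, edgeR FDR = 0.00732), from 1.337 to 3.81 CPM in controls to 0.636 to 1.37 CPM with vehicle and 0.530 to 1.05 CPM with hAAM. Without control replicate 3 this was -0.75 and no longer passed (edgeR FDR = 0.0972).

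**Figure D4:**
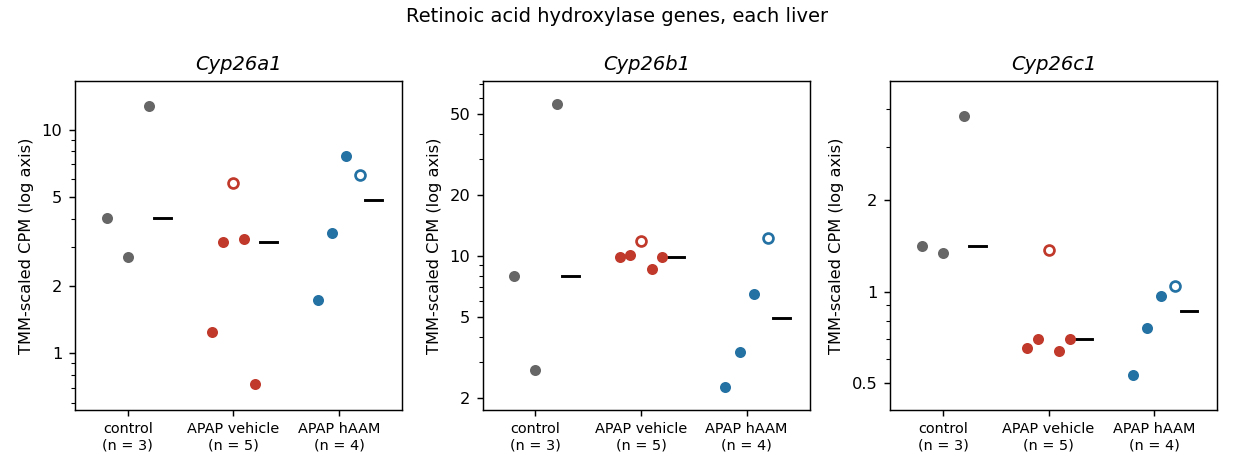
TMM-scaled CPM (y axis, log scale) of the 3 retinoic acid hydroxylase genes in each liver by group (x axis), with the group median as a black line and the near-identical livers as open circles. Control replicate 3 is the highest point of each panel, at 12.7, 55.8 and 3.81 CPM.

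Genes that make, carry and break down retinoids were then counted. Of 16 genes tested in this list, 7 fell, 1 rose and 8 did not pass in the pooled comparison, where 15.8% of all genes fell and 15.7% rose, and the median of the list was -0.27 against 0.01 for all genes. Aldh1a1, which oxidizes retinaldehyde to retinoic acid, fell by 1.21 (edgeR FDR = 6.7e-04), from 482 to 730 CPM in controls to 183 to 365 CPM with vehicle and 275 to 361 CPM with hAAM. The retinoid dehydrogenase Dhrs9 and the retinaldehyde reductase Dhrs3 fell by 0.97 (edgeR FDR = 0.00278) and 0.64 (edgeR FDR = 0.00454). The retinol-binding protein receptor of liver, Stra6l, fell by 0.63 (edgeR FDR = 0.00693), from 312 to 316.5 CPM in controls. Bco1, which cleaves carotene, rose by 0.72 (edgeR FDR = 0.00894; named after its values were seen). The list also counted 7 lower and 1 higher without the near-identical pair, where 3413 of all 22477 genes fell and 3815 rose. With library-size scaling it counted 5 lower and 3 higher, where 1192 of all 22581 genes were lower and 8940 higher. Its median was then 0.05 against 0.34 for all genes, and Stra6l was -0.31 and no longer called (edgeR FDR = 0.0628).

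Partners and co-regulators of the receptors were counted next. Of 14 genes tested, 8 fell, 0 rose and 6 did not pass in the pooled comparison, where 15.8% of all genes fell and 15.7% rose, and the counts were the same without the near-identical pair, with a list median of -0.27 against 0.01 for all genes. DESeq2 counted 9 lower and 1 higher. The co-repressor Nrip1 (RIP140), itself induced by retinoic acid, fell by 0.91 (SE 0.0725, edgeR FDR = 1.5e-05), from 58.0 to 73.8 CPM in controls to 33.1 to 38.8 CPM with vehicle and 30.3 to 33.1 CPM with hAAM. The co-repressor Ncor1 fell by 0.46 (edgeR FDR = 0.00111), the co-activators Ncoa2 and Ncoa1 by 0.35 (edgeR FDR = 0.00322) and 0.28 (edgeR FDR = 0.00343), and the Mediator subunit Med1 by 0.28 (edgeR FDR = 0.00463). For these 5 genes every APAP liver lay below every control liver, as for 11.4% of all genes. With library-size scaling Nrip1 still fell (-0.58, edgeR FDR = 6.1e-04), whereas the calls of Ncor1 (-0.13, edgeR FDR = 0.198), Ncoa2 (-0.023, edgeR FDR = 0.788), Ncoa1 (0.050, edgeR FDR = 0.546) and Med1 (0.047, edgeR FDR = 0.688) were lost.

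The obligate receptor partner Rxra was 465 to 549 CPM in controls, 350 to 401 CPM with vehicle and 317 to 417 CPM with hAAM, and fell by 0.42 (SE 0.0998, edgeR FDR = 0.00807). Rxrb fell by 0.30 (edgeR FDR = 0.00970), from 26.3 to 28.8 CPM in controls. For both genes every APAP liver lay below every control, as for 11.4% of all genes. Both calls were narrowly lost on leaving out 1 control, with the sign kept. Rxra gave -0.34 (edgeR FDR = 0.0596) without control replicate 3, where 4713 genes passed instead of 7121. Rxrb gave -0.26 (edgeR FDR = 0.0577) without control replicate 1, where 5148 genes passed. Rxrg, at 1.79 to 3.92 CPM, was 0.41 higher and did not pass (edgeR FDR = 0.0680). Leaving out 1 liver at a time, Rxrg ranged from 0.25 to 0.63, with edgeR FDR from 0.0240 to 0.294. The third retinoic acid receptor, Rarg, differed by -0.02 (edgeR FDR = 0.889). With library-size scaling, where the median of all genes was 0.34, Rxra (-0.10, edgeR FDR = 0.316) and Rxrb (0.018, edgeR FDR = 0.846) were no longer called. Rxrg (0.74, edgeR FDR = 0.00258) and Rarg (0.31, edgeR FDR = 0.0369) were called higher. The co-regulator list then counted 1 lower and 5 higher at a median of 0.06, where 1192 of all 22581 genes were lower and 8940 higher. Its direction against control depends on the scaling, while it stays below the median of all genes under both.

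Textbook target genes of retinoic acid formed the next list. Of 7 tested, 2 fell (Nrip1 and Dhrs3), 0 rose and 5 did not pass, against 15.8% and 15.7% of all genes, with a median of -0.10. With library-size scaling 2 fell and 1 rose, where 1192 of all 22581 genes fell and 8940 rose, at a median of 0.25 against 0.34 for all genes. Without the near-identical pair, 2 fell and 0 rose, at a median of 0.02.

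TIF1 partners are the heterochromatin proteins, the histone methyltransferase Setdb1, chromatin remodellers, Smad proteins and p53 with its ligase Mdm2. Of these and Trim66, 13 were tested, and 2 fell, 1 rose and 10 did not pass in the pooled comparison, near the 15.8% and 15.7% of all genes, with a median of 0.08 against 0.01 for all genes. Of 12 tested without the near-identical pair, 2 fell and 1 rose. Smad4, the common Smad to which Trim33 binds, fell by 0.27 (SE 0.0606, edgeR FDR = 0.00563), from 39.0 to 42.8 CPM in controls to 31.97 to 35.6 CPM with vehicle and 31.4 to 36.6 CPM with hAAM. The remodeller Chd3, which works with Trim28, fell by 0.71 (SE 0.171, edgeR FDR = 0.00894), from 165 to 193 CPM in controls to 72.0 to 149 CPM in APAP livers. Smad7, an inhibitor of TGF-β signalling, rose by 0.78 (edgeR FDR = 0.0170), a call lost without control replicate 1 (0.60) or control replicate 2 (0.72). Trim66 was 0.55 higher and did not pass (edgeR FDR = 0.346). With library-size scaling the list counted 0 lower and 8 higher, where 1192 and 8940 of all 22581 genes were called, at a median of 0.41 against 0.34 for all genes, and neither Smad4 (0.05, edgeR FDR = 0.580) nor Chd3 (-0.39, edgeR FDR = 0.0613) was called.

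Interferon pathway genes, which Trim24 is known to restrain in mouse liver, were counted last. Of 9 tested, 3 fell, 0 rose and 6 did not pass, against 15.8% and 15.7% of all genes, with a median of 0.08 against 0.01 for all genes. The counts were the same without the near-identical pair, at a median of 0.17. Stat2 and Irf9, subunits of the transcription factor that interferon activates, fell by 0.90 (edgeR FDR = 1.4e-04) and 0.46 (edgeR FDR = 0.00171). For both, every APAP liver lay below every control, as for 11.4% of all genes. Irf1 fell by 2.17 (SE 0.393, edgeR FDR = 0.00195), where control replicate 1 stood at 189.5 CPM and the other controls at 30.2 and 33.8 CPM, against 14.6 to 23.6 CPM in APAP livers. Without that control the difference was -0.77 and still passed, whereas DESeq2 gave no p-value for Irf1 and counted 2 genes of the list lower. With library-size scaling 2 fell and 2 rose, where 1192 of all 22581 genes fell and 8940 rose. The median was then 0.43 against 0.34 for all genes, and Irf9 was -0.14 and no longer called (edgeR FDR = 0.320).

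**Figure D5:**
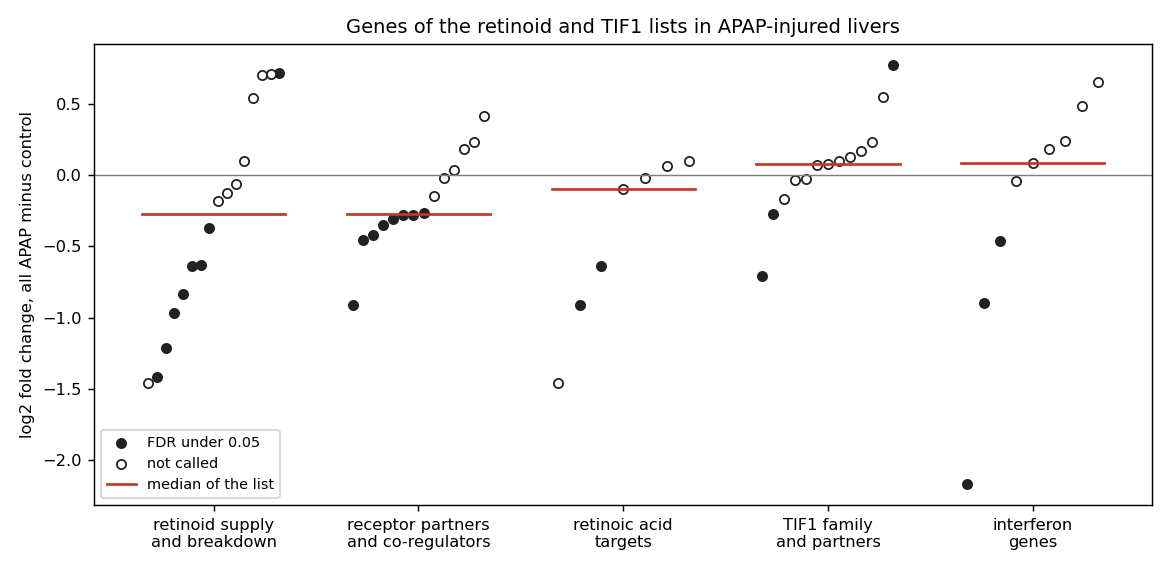
Log2 fold changes of all APAP livers against control (y axis) for the tested genes of 5 lists (x axis), filled where edgeR's FDR was under 0.05, with the list median as a red line. The co-regulators show 8 filled points, all below 0, whereas the TIF1 partners lie around a median of 0.08.

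By treatment, both groups were set against the same controls. Among the retinoid genes 7 fell and 1 rose with vehicle, where 14.8% of all genes fell and 15.0% rose, and 5 fell and 0 rose with hAAM, where 9.96% fell and 10.7% rose. Co-regulators counted 8 lower and 1 higher with vehicle, against 7 lower and 0 higher with hAAM. With library-size scaling they counted 1 lower and 5 higher with vehicle and 1 lower and 4 higher with hAAM. Of all 22581 genes, 1110 were lower and 8637 higher with vehicle under that scaling, and 781 and 6559 with hAAM. For the TIF1 partners the counts were 3 lower and 1 higher with vehicle and 2 lower and 0 higher with hAAM, for the interferon genes 3 lower and 0 higher in both, and for the retinoic acid targets 2 lower and 0 higher in both. With library-size scaling the TIF1 partners counted 0 lower and 8 higher with vehicle and 1 lower and 8 higher with hAAM. The retinoid genes then counted 6 lower and 3 higher with vehicle and 2 lower and 1 higher with hAAM. For the interferon genes it was 2 lower and 2 higher with vehicle and 2 lower and 1 higher with hAAM. The targets counted 2 lower and 1 higher with vehicle and 1 lower and 0 higher with hAAM. Without the near-identical pair and with TMM, the retinoid genes counted 7 lower and 1 higher with vehicle and 4 lower and 0 higher with hAAM, and the co-regulators 8 lower with vehicle and 5 lower with hAAM, with 0 higher in both. In that fit 3143 of all 22477 genes fell and 3600 rose with vehicle, and 1908 fell and 2504 rose with hAAM. Counts of the TIF1 partners and the interferon genes by treatment were the same without the pair, and the targets counted 2 lower with vehicle and 1 lower with hAAM. Between hAAM and vehicle, edgeR called 0 of all 22581 genes, and 0 without the pair, so no list could hold a called gene there.

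The genes whose log2 CPM followed Trim24 most closely over the 12 livers were Fam83h (Pearson r = 0.908), Inafm2 (0.900), Wwc2 (0.899), Slc35f5 (0.897) and Chpf2 (0.896), out of the 11171 genes whose log2 CPM averaged 2 or more. These are descriptions over livers that share groups and libraries. Without the near-identical pair, r was 0.924, 0.911, 0.912, 0.897 and 0.902 in the same order. Fam83h, the most alike, was 19.4 to 23.6 CPM in controls, 21.6 to 25.5 CPM with vehicle and 18.6 to 21.0 CPM with hAAM, the same order of groups as Trim24 over a smaller range.

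Markers of other liver cells stood beside these levels as follows. Of 7 recruited monocyte and macrophage markers, 6 rose and 0 fell in the pooled comparison, where 15.7% of all genes rose and 15.8% fell, and their sum was 75.4 CPM in vehicle replicate 3 and 75.0 CPM in hAAM replicate 4, the lowest of the APAP livers. Stellate cells, which store retinol esters, had 2 of 8 markers higher (Des and Pdgfrb), and their sums were 291 to 389 CPM in controls, 332 to 362 CPM with vehicle and 340 to 400 CPM with hAAM. Sinusoidal endothelial markers counted 3 higher and 1 lower of 6, Kupffer cell markers 1 higher of 6 (Marco), cycling markers 1 higher of 6 (Cdk1), hepatocyte markers 1 lower of 6 (Hnf4a), and cholangiocyte and lymphocyte markers 0 of 5 and 0 of 6. All these counts were the same without the near-identical pair. With library-size scaling 1192 of all 22581 genes fell and 8940 rose. There 7 recruited, 5 endothelial, 4 stellate, 4 cycling and 3 Kupffer cell markers were higher. Hepatocyte markers then counted 1 higher and 0 lower, and endothelial markers 0 lower. DESeq2 counted 4 cycling markers higher and 2 hepatocyte markers lower, where 4050 of all genes rose and 3945 fell. Between hAAM and vehicle, edgeR called 0 of all 22581 genes, so no marker of any cell type could be called.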

How the data were processed

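Whole-liver RNA of 12 mice was sequenced by the authors as paired-end, ribosome-depleted, directional libraries, and the submitters' processing notes name Cutadapt 4.6, STAR 2.7.1a, MultiQC 1.25, DESeq2 1.38.3 and GRCm38. The authors deposited raw counts per Ensembl gene, made with summarizeOverlaps. The labels' protocol names 14 libraries, of which 12 were analysed here. Symbols and coordinates came from GENCODE M21 on GRCm38 (24128 of 24187 genes had a symbol). Genes were filtered with filterByExpr by group and fitted with edgeR 4.0.16 (R 4.3.3, TMM, quasi-likelihood, two-sided, all 12 livers together). FDR is the Benjamini-Hochberg value over all 22581 genes, and 0.05 was the threshold. Code was tested on simulated data. The members and gene lists were chosen with earlier results of these data known. Each list's genes past the threshold are named, at most the 5 with the smallest p, plus Trim66, Rarg, Rxra, Rxrb, Rxrg, Cyp26b1, Cyp26c1 and the 5 genes most like Trim24. Stra6, Crabp1 and Crabp2 did not enter the fit, and some listed genes are not reported here. Alternatives were DESeq2 1.42.0, other scalings and filters, replicate blocks, fewer groups and leaving out livers. Labels do not say how animals were housed or paired, so p-values measure the spread between these samples.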

Additional observations from a re-analysis of the deposited data

Results flagged for a closer look

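In 66 groups of 4 or 5 livers, over the genes named here, 3 had a liver that stood apart from the rest of its group by Dixon's criterion at 95%, a criterion that chance meets in about 1 of 20 groups. Rara was 29.4 CPM in hAAM replicate 2, whereas the other hAAM livers were at 31.5 to 31.9 CPM. Cyp26c1 was 1.37 CPM in vehicle replicate 3, against 0.636 to 0.696 CPM in the other vehicle livers, and this liver is one of the near-identical pair. Dhrs3 was 108 CPM in hAAM replicate 3, against 81.1 to 85.1 CPM in the other hAAM livers.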

How the results depend on the processing

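Against control, library-size scaling moved the median of all genes from 0.01, 0.02 and 0.01 (vehicle, hAAM and pooled) to 0.36, 0.32 and 0.34, and in that order gave 0.75, 0.12 (sign turned) and 0.47 for Trim24, 0.43, 0.42 and 0.43 for Trim28, 0.29, 0.24 and 0.27 for Trim33 (sign turned) and 0.53, 0.30 (sign turned) and 0.43 for Rara. Relative to that median, Trim24 was 0.40 and Trim33 -0.07 with vehicle. For the pooled comparison this scaling also turned Med1 (0.047), Ncoa1 (0.050), Rarg (0.31), Rxrb (0.018) and Smad4 (0.050), and split its calls into 8940 higher and 1192 lower instead of 3554 and 3567. Rara for hAAM against control, near 0, turned to 0.0079 when at least 10 counts were required in every liver and to 7.8e-04 with only the groups compared.

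Genes called against control numbered 6719 with vehicle (4253 with a replicate block, 4633 to 7197 leaving out 1 liver), 4666 with hAAM (7340 with library-size scaling, 2959 with a replicate block, 2729 with only the groups compared) and 7121 pooled (4713 without control replicate 3). Leaving out 1 liver gave 2419 to 5456 with hAAM, where control replicates 1 and 3 (3027 and 2419) and hAAM replicates 1 and 2 (2799 and 2942) moved it by over 1.5 times, and 4713 to 7902 pooled. For hAAM against vehicle, 0 became 1 with DESeq2 (Trim24), 1 without vehicle replicate 3 (Nudt7) and, in DESeq2 without the near-identical pair, a fit chosen after seeing the data, 88 (66 higher, 22 lower, Trim24 included). The causes were not tested.

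Leaving out 1 liver, Rara for hAAM against control ranged from -0.059 to 0.053, Rarb from -0.092 to 0.26 (vehicle) and -0.047 to 0.31 (pooled), Cyp26a1 from -0.81 to 0.51 (hAAM) and -1.24 to 0.081 (pooled), and, pooled, Rarg from -0.087 to 0.084 and Cyp26b1 from -1.99 to 0.59. Without the near-identical pair, Rarb with vehicle was -0.013 (-0.027 in DESeq2) and Rarg pooled 0.019 (0.0074 in DESeq2). Rarg turned without control replicate 1, and Cyp26b1 without control replicate 3. Deviations of same-numbered livers of different groups from their group means had r from -0.458 to 0.385. With so few livers these values cannot tell whether the numbers pair the animals. With the replicate block Trim24 was 0.33 (vehicle), -0.22 (hAAM), 0.08 (pooled) and -0.55 (hAAM against vehicle), 5067 genes were called pooled and 0 between treatments, and the list genes named by the rule kept their calls. Depth limits Rarb and Trim66, which had 91 to 154 and 3 to 11 counts per liver.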
